A study of Homo sapiens with 4 samples.

Results

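CEBPG belongs to the basic leucine zipper (bZIP) transcription factors, and the genes described here are 47 bZIP genes chosen by name as possible dimer partners or rivals of CEBPG. Of these 47 genes, 45 had at least 1 row in the RNA-seq table of MV4-11 cells, which held 16490 genes, while BACH2 and HLF were not listed. MV4-11 is a human acute myeloid leukemia (AML) cell line of myelomonocytic type. The comparison was between 2 libraries of cells labelled CEBPG presence, which carried the control hairpin sh-NC, and 2 libraries of cells labelled CEBPG knockdown, which carried sh-CEBPG#3. The study placed its CEBPG hairpins in the lentiviral vector pLKO.1-puro and selected its stable lines with puromycin. Its methods do not name the vector of sh-NC, so whether all 4 libraries shared the vector is not known. Only 1 control hairpin and 1 CEBPG hairpin were sequenced, so that what CEBPG does and what this hairpin does cannot be told apart. Separate cultures or infections are not stated for the 2 libraries of a group. The p-values rest only on the spread between these libraries, modelled in part across all genes tested.

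A bZIP factor binds DNA only as a dimer. Its leucine zipper selects the partner, and the paired basic regions grip a short, nearly palindromic site. CEBPG has a basic region and a zipper but lacks a strong activation domain, and it pairs with other CEBP proteins and with ATF4, so its effect depends on which partners are present. In myeloid cells CEBPA and CEBPE drive granulocyte genes, CEBPB serves emergency and monocytic programs, and the JUN, FOS and ATF3 proteins make up the AP-1 dimers that answer to growth factors and stress.

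Levels are given in FPKM (fragments per kilobase of transcript, relative to sequencing depth), summed over the RefSeq rows of a gene. Over the whole table the FPKM totals ran from 364353 to 389766. On the log2(FPKM + 1) values of the 12142 genes tested below, Pearson's r was 0.993 within sh-NC, 0.994 within sh-CEBPG#3 and 0.962 to 0.964 across the groups. The read depth is unknown, since FPKM values carry no counts. Changes are differences of log2(FPKM + 1), sh-CEBPG#3 minus sh-NC, a scale that understates the change of genes with low values. They were tested with limma across all 12142 genes whose mean reached 0.5 FPKM, and a gene was called at a Benjamini-Hochberg adjusted p under 0.05. All 9 of the myelomonocytic markers checked (CD33, FLT3, CSF1R, SPI1, MPO, LYZ, HOXA9, MEIS1 and PTPRC) were listed in every library. Their summed level was 896 to 974.7 FPKM in sh-NC and 3382 to 3555 FPKM in sh-CEBPG#3, most of it from the lysozyme gene LYZ. Of the 9 markers, 5 were called higher and 2 lower, beside 18.5% and 23.8% of all genes tested. The only T cell marker listed of 5 was CD4, which monocytic cells also express, at 66.0 to 74.9 and 90.7 to 95.3 FPKM. The B cell markers summed to 2.96 to 3.24 and 2.35 to 2.98 FPKM, with MS4A1 not listed, and of the erythroid and megakaryocyte markers only ITGA2B was listed, at 0.138 FPKM or less. The epithelial keratin KRT8 was called higher (2.29 and 2.35 against 6.26 and 6.19 FPKM), KRT18 was not called (9.77 and 10.6 against 9.75 and 8.57 FPKM), and EPCAM and CDH1 were not listed. The part of these marker differences in the results below was not tested.

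Of the 45 listed genes, 42 passed the filter on low values. FOSB, CREB5 and MAF lay below it. Among the 42 tested genes, 13 were called higher in sh-CEBPG#3 cells and 9 lower, and 20 were not called. The background over all genes tested was 18.5% called higher and 23.8% called lower, against 31% and 21.4% of the bZIP genes. The share of lower calls was near the background, and CEBPG, the target of the hairpin, was among the 9. The higher calls fell from 13 to 8 without sh-CEBPG#3 replicate 1, and to 7 when each RefSeq row was tested by itself, where the lower calls fell from 9 to 1. BATF2 passed the filter only through its sh-CEBPG#3 values, and without it 12 of 41 genes, or 29.3%, were called higher. A call with an absolute log2 change of at least 0.5 was made for 11 bZIP genes, or 26.2%, against 18% of all genes. Among the 11 were CEBPG, which the hairpin targets, and BATF2, and the share without these genes is smaller. On the log2(FPKM + 1) scale JUN and BATF2 passed a log2 change beyond 1 in either direction with p under 0.05 before adjustment, which is 4.76% of the bZIP genes tested against 3.41% of all. Without BATF2 it was 1 of 41 genes, a share below that background. JDP2 and CREBL2, at 42.1% and 45.4% of their control levels, passed as well with a pseudocount of 0.1 or 0.01, which gave 4 genes. The libraries of the groups did not overlap for 31 bZIP genes, or 73.8%, where the background was 71.7%. The median change was 0.08 over the bZIP genes and -0.04 over all genes tested, and the medians of the absolute change were 0.29 and 0.23.

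The set spanned several orders of magnitude. In sh-NC cells the 5 highest genes were ATF4, CEBPA, XBP1, JUND and JUNB, from 264 down to 53.0 FPKM on average. The same 5 genes led in sh-CEBPG#3 cells, where JUND took rank 2 and CEBPA rank 3. CEBPG itself moved from rank 8 to rank 14, and JUN from rank 40 to rank 26. In bulk RNA, fewer cells of a type and less RNA per cell cannot be told apart, and this holds for each difference reported here.

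The targeted gene was examined first. CEBPG lies on chromosome 19 (GRCh38, chr19:33373685-33382686, plus strand, 2 exons). It had 30.4 and 33.6 FPKM with sh-NC and 19.2 and 17.1 FPKM with sh-CEBPG#3. Both knockdown libraries were below both control libraries, and 56.8% of the control level was left (log2 change -0.78, standard error 0.09, adjusted p = 8.88e-05).

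The other CEBP genes went different ways. CEBPB, an activator with a part in macrophage and emergency granulocyte genes, lies at chr20:50190830-50192668 as a single exon. It had 15.3 and 14.9 FPKM in sh-NC and 26.2 and 24.2 FPKM in sh-CEBPG#3, or 15.1 ± 0.306 against 25.2 ± 1.41 FPKM (SD, n = 2). The groups did not overlap, and the level was 1.67-fold higher (log2 change 0.70, standard error 0.08, adjusted p = 9.92e-05). CEBPD, which is induced in acute-phase and differentiation responses, had 21.1 and 24.1 FPKM in sh-NC against 39.5 and 38.6 FPKM in sh-CEBPG#3. Its groups were also apart, by 1.73-fold (log2 change 0.76, standard error 0.08, adjusted p = 7.74e-05). These calls for CEBPB, CEBPD and CEBPG were kept in each of the 12 alternative settings.

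CEBPA, the factor that commits progenitors to the granulocyte lineage, lies 71150 bp from CEBPG on the same chromosome (chr19:33299934-33302534, minus strand, a single exon). Its 254 and 273 FPKM in sh-NC were above its 216 and 213 FPKM in sh-CEBPG#3 (log2 change -0.29, standard error 0.07, adjusted p = 0.00752). The call was lost without sh-CEBPG#3 replicate 1 (adjusted p = 0.0926) and without replicate 2 (adjusted p = 0.115), and transcripts on the opposite strand cover 43.9% of its exonic bases in GENCODE. CEBPE, needed for the late granulocyte stages, was low. It had 3.37 and 3.70 FPKM against 3.50 and 2.58 FPKM, the groups overlapped, and it was not called (log2 change -0.17, adjusted p = 0.292).

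Summed over the 5 CEBP genes, the level was 324 and 350 FPKM in sh-NC and 305 and 296 FPKM in sh-CEBPG#3, and its make-up differed. CEBPG held 9.38% and 9.59% of that sum with sh-NC and 6.32% and 5.77% with sh-CEBPG#3. CEBPB and CEBPD each lay below CEBPG in both control libraries and above it in both knockdown libraries. The ratio of CEBPB to CEBPG was 0.505 and 0.445 in sh-NC and 1.36 and 1.42 in sh-CEBPG#3, and that of CEBPD to CEBPG was 0.694 and 0.720 against 2.05 and 2.26. The ratio of CEBPA to CEBPB was 16.5 and 18.3 in sh-NC against 8.25 and 8.81 in sh-CEBPG#3, so CEBPA was the most abundant CEBP transcript in all 4 libraries. These ratios share their genes with the changes above and were not tested on their own.

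ATF4, the partner of CEBPG in the amino acid and integrated stress response, had the highest mean of the bZIP genes in both groups. It had 259 and 269 FPKM in sh-NC and 269 and 256 FPKM in sh-CEBPG#3. The groups overlapped, and the 95% interval of the log2 change ran from -0.16 to 0.14 (adjusted p = 0.924). ATF4 is controlled largely through the translation of its mRNA, which these data do not measure, and GENCODE lists 4 pseudogenes of it that could share reads. ATF5, a relative of ATF4, had 24.9 and 25.7 FPKM against 24.2 and 21.6 FPKM. Its knockdown libraries were just below its control libraries, and it was not called (interval -0.32 to 0.04, adjusted p = 0.202). DDIT3 codes for CHOP, a CEBP relative that blocks other CEBP proteins by pairing with them. It had 29.0 and 28.7 FPKM against 29.3 and 27.3 FPKM, overlapping between the groups (interval -0.20 to 0.14, adjusted p = 0.808). With ATF4 near its control level and CEBPG lower, the ratio of ATF4 to CEBPG transcripts was 8.51 and 8.03 in sh-NC and 13.98 and 14.96 in sh-CEBPG#3.

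JUN, JUNB and JUND, the AP-1 subunits that can dimerize among themselves, were all called higher, and their sum was 226 and 235 FPKM in sh-NC against 316 and 308 FPKM in sh-CEBPG#3. JUN (chr1:58776845-58784048, minus strand, a single exon) had 1.58 and 1.81 FPKM in sh-NC and 7.69 and 7.44 FPKM in sh-CEBPG#3, or 1.69 ± 0.166 against 7.56 ± 0.180 FPKM (SD, n = 2). Its knockdown libraries lay far above its control libraries, by 4.47-fold (log2 change 1.67, standard error 0.10, adjusted p = 1.61e-06), the largest change on the log2(FPKM + 1) scale among the 42 genes, while that of BATF2 was larger with a pseudocount of 0.1 or 0.01. JUNB, often an antagonist of JUN, had 53.9 and 52.2 FPKM against 87.8 and 79.9 FPKM, again without overlap (log2 change 0.65, standard error 0.08, adjusted p = 0.000109). JUND, the most abundant JUN transcript, had 171 and 181 FPKM against 220 and 220 FPKM (log2 change 0.33, adjusted p = 0.00379). The JUND call was lost without sh-CEBPG#3 replicate 1 or 2 (adjusted p = 0.0634 and 0.0665), with the same size of change. JUN made up 0.697% and 0.771% of the JUN sum in sh-NC and 2.44% and 2.42% in sh-CEBPG#3, so that JUND still outnumbered JUN by 28.6 and 29.6 to 1 in the knockdown, against 108 and 99.8 to 1 in the control.

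The FOS proteins bind DNA only with a JUN partner. FOS was called higher (5.45 and 6.15 against 8.97 and 8.05 FPKM, log2 change 0.48, adjusted p = 0.00314), and so was FOSL1 (7.59 and 7.35 against 10.7 and 8.57 FPKM, log2 change 0.32, adjusted p = 0.0341). The FOSL1 call rested on sh-CEBPG#3 replicate 1, without which the change was 0.18 (adjusted p = 0.261), and it was also lost with equal FPKM totals (adjusted p = 0.0530) or with no filter (adjusted p = 0.117). FOSL2, the most abundant FOS gene at 21.3 to 25.4 FPKM, was not called (adjusted p = 0.191). FOSB, below the filter, had 0.478 and 0.419 FPKM in sh-NC and 0.156 and 0.0819 FPKM in sh-CEBPG#3, which puts it below its control in both knockdown libraries, without a test.

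ATF3 and JDP2 are small repressors of AP-1 sites, and they moved apart. ATF3 was called higher (4.84 and 5.43 against 7.62 and 6.68 FPKM, log2 change 0.41, adjusted p = 0.00914), a call lost without sh-CEBPG#3 replicate 1 (adjusted p = 0.0588) and with no filter (adjusted p = 0.0514). JDP2 (chr14:75427716-75474111, plus strand), which lies 145485 bp from FOS and 48343 bp from BATF, had 4.19 and 4.07 FPKM in sh-NC and 1.90 and 1.57 FPKM in sh-CEBPG#3. The groups did not overlap, and 42.1% of its control level was left, the lowest share among the 42 bZIP genes tested (log2 change -0.91, standard error 0.11, adjusted p = 0.000155). FOS, JDP2 and BATF thus lie within one stretch of chromosome 14, where FOS was called higher, JDP2 lower, and BATF was not called at 3.32 to 4.86 FPKM.

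BATF2, an interferon-inducible partner of JUN in macrophages, lies at chr11:64987945-64997018 on the minus strand. It was listed at 0 and at 0.0227 FPKM with sh-NC and had 1.77 and 1.61 FPKM with sh-CEBPG#3. Both knockdown libraries were above both control libraries (log2 change 1.41, standard error 0.14, adjusted p = 3.43e-05). BATF2 entered the test only because these knockdown values raised its mean above the filter, so it had to differ, and its p is given as a description. No fold is given, since 1 control library is at 0. BATF3, which directs dendritic cell genes, was not called at 8.66 to 10.5 FPKM.

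BACH1 and the CNC factors compete for antioxidant response elements, each as a dimer with a small MAF protein. NFE2L2, which codes for the activator NRF2 (chr2:177218667-177392756, minus strand), had 15.0 and 15.1 FPKM in sh-NC and 28.8 and 26.1 FPKM in sh-CEBPG#3, or 15.0 ± 0.118 against 27.4 ± 1.86 FPKM (SD, n = 2). Its groups were well apart, by 1.82-fold (log2 change 0.82, standard error 0.08, adjusted p = 3.78e-05). Exons on the opposite strand, of AGPS and HNRNPA3 among others, cover 24.8% of its exonic bases over all its GENCODE transcripts. How much of this overlap lies in the RefSeq rows measured here was not examined. BACH1, the heme-regulated repressor of the same elements (chr21:29194071-29630751, plus strand), had 5.20 and 5.56 FPKM against 9.03 and 7.80 FPKM, also without overlap (log2 change 0.56, standard error 0.10, adjusted p = 0.00144). The activator and the repressor were therefore both higher. The BACH1 call was lost when each RefSeq row was tested by itself (adjusted p = 0.275). Its most abundant row, NM_001186, had 2.65 and 5.37 FPKM in sh-NC against 8.43 and 5.56 FPKM in sh-CEBPG#3. NFE2, the erythroid and megakaryocyte member (chr12:54292111-54301015, minus strand), had 36.4 and 42.6 FPKM against 26.9 and 26.3 FPKM. Its control libraries were both above its knockdown libraries, although they differed from each other more than the knockdown libraries did (log2 change -0.55, standard error 0.09, adjusted p = 0.000771). NFE2L1, which controls proteasome genes, was also called lower (19.1 and 21.0 against 14.5 and 14.2 FPKM, log2 change -0.45, adjusted p = 0.00167).

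Of the small MAF partners, MAFK was called lower (10.6 and 10.4 against 6.85 and 7.56 FPKM, log2 change -0.49, adjusted p = 0.00166). MAFG, the most abundant at 37.3 to 41.99 FPKM, and MAFF, at 0.768 to 1.03 FPKM, were not called. The large factor MAF was listed at 0 in both sh-NC libraries and at 0.0131 and 0.0297 FPKM with sh-CEBPG#3, below the filter.

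The CREB and ATF2 groups, which bind cAMP response elements, showed no called gene. ATF1, CREB1, CREM, ATF2 and ATF7 lay between 2.63 and 9.88 FPKM in all libraries, with log2 changes from 0.02 for ATF1 to 0.26 for CREM. CREB5 stayed at 0.101 FPKM or less. Among the factors of the endoplasmic reticulum stress response, ATF6B (11.4 and 12.7 against 14.7 and 15.3 FPKM, log2 change 0.30, adjusted p = 0.0196) and CREB3L2 (4.98 and 4.86 against 6.70 and 6.23 FPKM, log2 change 0.33, adjusted p = 0.0153) were called higher. The ATF6B call was lost without sh-NC replicate 1 (adjusted p = 0.0981) or either sh-CEBPG#3 library (adjusted p = 0.0541 and 0.0975), and that of CREB3L2 without sh-CEBPG#3 replicate 1 (adjusted p = 0.0783). ATF6, CREB3, CREB3L4 and XBP1 were not called. XBP1 was among the most abundant genes, at 197 and 204 FPKM in sh-NC and 195 and 180 FPKM in sh-CEBPG#3 (adjusted p = 0.314). Only a row for its unspliced mRNA was listed, and the spliced form that codes for the active factor was not analysed here.

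In the PAR group, whose members follow the circadian clock, DBP was called lower (2.67 and 2.80 against 2.27 and 1.57 FPKM, log2 change -0.37, adjusted p = 0.0493), while TEF and the repressor NFIL3 were not called. Both atypical bZIP genes were called lower. CREBL2, a small CREB-like gene (chr12:12611827-12645108, plus strand), had 4.02 and 3.91 FPKM in sh-NC and 1.99 and 1.61 FPKM in sh-CEBPG#3. Its groups did not overlap, and 45.4% of the control level was left (log2 change -0.83, standard error 0.11, adjusted p = 0.000295). CREBZF, which acts mainly as a cofactor of other factors, had 10.8 and 11.1 against 9.67 and 8.53 FPKM (log2 change -0.25, adjusted p = 0.0499). The calls of DBP and CREBZF lay at the threshold, and each was lost in 8 of the 12 alternative settings. That of DBP was lost without sh-NC replicate 2 (adjusted p = 0.0901) or sh-CEBPG#3 replicate 2 (adjusted p = 0.293), and that of CREBZF without sh-NC replicate 1 (adjusted p = 0.0624), sh-NC replicate 2 (adjusted p = 0.128) or sh-CEBPG#3 replicate 2 (adjusted p = 0.285).

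Since many bZIP genes are themselves bound by bZIP dimers, their RefSeq promoters were searched for the sites that these dimers recognize. A promoter was given for 41 of the 47 genes (GRCh38.p14), and the 250 bases before each start were read on both strands. The full cAMP response element TGACGTCA was present for 6 genes (JUND, CREM, CREB3L2, MAF, MAFF and BACH2) and in 1.65% of all 35116 promoters. The AP-1 pattern TGANTCA, which allows any middle base, also matched for 6 genes (CEBPE, ATF5, DDIT3, CREB5, ATF6B and BACH1) and in 6.57% of all promoters. The ATF6B match was TGATTCA, while the others were TGACTCA or TGAGTCA, the forms usual for AP-1. A gene with several promoters counts here if any of them holds the site, so the counts per gene and the shares per promoter are not the same measure. Of the 11 genes called higher with a promoter, 2 held the cAMP response element and 2 matched the AP-1 pattern, of which only BACH1 had C or G in the middle. Of the 7 called lower none held either, beside 6 of all 41 genes for each. Whether either goes with the calls was not tested. The windows below, written along the strand of each gene with the element in capitals, show 2 genes called higher and 2 not called for each element.
JUND, chr19:18281804-18281833, minus strand, called higher: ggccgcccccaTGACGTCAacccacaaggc
CREB3L2, chr7:138002247-138002276, minus strand, called higher: gagttcctcggTGACGTCAcagacactccc
CREM, chr10:35195841-35195870, plus strand, not called: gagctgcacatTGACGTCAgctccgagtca
MAFF, chr22:38201929-38201958, plus strand, not called: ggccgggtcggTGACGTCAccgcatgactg
BACH1, chr21:29298863-29298892, plus strand, called higher: cgcggaaggagTGAGTCAcctgaccgctgc
ATF6B, chr6:32128335-32128364, minus strand, called higher: tccgcatctgtTGATTCAcgtgctcagcac
DDIT3, chr12:57520737-57520766, minus strand, not called: gcgcgcgcgcaTGACTCAcccacctcctcc
CEBPE, chr14:23119337-23119366, minus strand, not called: ctgcccctcccTGAGTCAccccaaggggag
The cAMP response element is the same palindrome in each of the 4 windows, and the AP-1 windows differ in the middle base and the orientation of the element. Called and not called genes thus carried the same cAMP response element, and BACH1, called higher, held the same AP-1 letters as CEBPE, not called. The letters of ATF6B, called higher, were in neither the DDIT3 nor the CEBPE window. A match describes the sequence only, not binding.

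Of the other elements, the CEBP pattern TTGCNNAA was found for 5 genes (ATF5, CREB5, CREB1, CREB3L2 and NFIL3) and in 9.05% of all promoters. None of the matches in these genes was a full palindrome. The composite CEBP-ATF element TGATGNAAT, which CEBP and ATF4 dimers bind, was found only for CREB5 and in 0.888% of all promoters. The interferon-stimulated element was found for ATF5 (3.02% of all promoters) and the D-box TTATGNAA of the PAR factors for JDP2 (3.03%). The antioxidant core TGANNNNGC, which can overlap the other elements, was found for 16 genes, NFE2L2, BACH1 and MAFG included, and in 35.2% of all promoters.

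Summed levels can hide shifts between the RefSeq rows of a gene, which differ in transcript ends or splicing. Of the 45 listed genes, 22 had 1 row and 23 had several. In CEBPA the split among 4 rows differed between the 2 control libraries themselves. NM_001287435 had 49.7 and 194 FPKM in sh-NC and 132 and 129 FPKM in sh-CEBPG#3, and NM_001285829 had 86.2 and 4.98 against 8.79 and 9.14 FPKM. The first sh-NC library stood apart from the other 3 in this split, although its summed CEBPA level did not, and a test of the most abundant row gave a log2 change of 0.40 (adjusted p = 0.744) in place of -0.29. In CEBPG the row NM_001806 held 90.5% or more of the level in every library and had 29.7 and 33.4 FPKM in sh-NC against 17.4 and 17.0 FPKM in sh-CEBPG#3, while the minor row NM_001252296 had 0.686 and 0.180 against 1.84 and 0.0838 FPKM.

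The DDIT3 rows went different ways under a similar sum. NM_004083, the most abundant DDIT3 row, had 18.1 and 19.1 FPKM in sh-NC and 14.9 and 13.8 FPKM in sh-CEBPG#3, or 62.7% and 66.5% against 50.8% and 50.7% of the sum. NM_001195053 was listed at 0 in both sh-NC libraries and at 0.220 and 3.01 FPKM with sh-CEBPG#3. Exons on the opposite strand, of MARS1 and MBD6, cover 31.6% of the exonic bases of DDIT3 over all its GENCODE transcripts. The minor ATF4 row NM_001675 had 28.9 and 27.4 against 21.7 and 19.8 FPKM, without overlap, while the main row NM_182810 overlapped between the groups, with 230 and 242 against 247 and 236 FPKM. The highest row was a different one in the 2 groups for CREB1 (NM_134442 and NM_004379) and CREB3L4 (NM_130898 and NM_001255978), which were both not called.

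The genes that these factors are known to control were read from lists chosen by function. For NRF2 and BACH1, 12 of 14 antioxidant and iron genes were called higher and 0 lower, beside 18.5% and 23.8% of all genes tested, with a median change of 0.70, beside -0.04 over all genes. HMOX1, the heme oxygenase that BACH1 represses, had 0.948 and 1.19 FPKM in sh-NC and 8.60 and 9.33 FPKM in sh-CEBPG#3 (log2 change 2.27, standard error 0.11, adjusted p = 2.87e-07). FTH1, the ferritin heavy chain, followed with a log2 change of 2.03 (adjusted p = 4.79e-08). Every library of the knockdown was above the control for both genes. The count fell to 8 without sh-CEBPG#3 replicate 1 and to 7 per RefSeq row.

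Of the 18 myeloid genes known from CEBPA, CEBPB or CEBPE, 13 were tested, of which 7 were called higher and 1 lower (18.5% and 23.8% over all genes), with a median of 0.53. The largest rises were those of LYZ (log2 change 2.37, adjusted p = 1.40e-08) and of the granule protease gene PRTN3 (1.38, adjusted p = 6.97e-07), and the alarmin gene S100A9 fell by 0.70 on the log2 scale (adjusted p = 0.000159). Without sh-NC replicate 2 the lower calls rose to 2. The late granule genes LTF and LCN2 were not listed, and CAMP and CD14 lay below the filter. Several of these genes were also higher among the myelomonocytic markers described above, since MPO and LYZ stand in both lists.

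Of the 15 genes controlled by XBP1 and ATF6, 10 were called higher and 2 lower (18.5% and 23.8% over all genes), with a median of 0.26. CRELD2 (0.72, adjusted p = 6.80e-05) and the disulfide isomerase gene PDIA6 (0.58, adjusted p = 0.000114) rose most. The chaperone gene CALR was called lower (1438 and 1565 against 533 and 527 FPKM, adjusted p = 2.88e-07), as was the translocon gene SEC61B (-0.26, adjusted p = 0.0297). The higher calls fell to 6 without either sh-CEBPG#3 library, and the lower calls to 1 without sh-NC replicate 2 or sh-CEBPG#3 replicate 1. Per RefSeq row 5 were called higher and 1 lower.

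Of the 19 genes of ATF4 and CHOP, 4 were called higher, 4 lower and 11 not called, shares near the 18.5% and 23.8% over all genes, and the median was 0.07. NUPR1 (0.72, adjusted p = 0.00100) and HERPUD1 (0.58, adjusted p = 0.000445) were highest, while EIF4EBP1, a brake on translation, had 205 and 226 FPKM against 49.97 and 48.9 FPKM (log2 change -2.10, adjusted p = 3.84e-08) and PPP1R15A had a log2 change of -0.32 (adjusted p = 0.0309). Asparagine synthetase (ASNS) and the amino acid carrier SLC7A5 were not called. Without sh-CEBPG#3 replicate 1 the higher and lower calls both fell to 2, and without replicate 2 the lower calls fell to 1.

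Of 15 tested immediate early genes outside the bZIP family, 2 were called higher and 3 lower, no larger shares than the 18.5% and 23.8% over all genes, with a median of 0.21. The phosphatase gene DUSP2 (1.48, adjusted p = 1.23e-06) and the mRNA decay factor gene ZFP36 (0.71, adjusted p = 5.73e-05) were higher, and DUSP6 (-1.24, adjusted p = 4.94e-06) and MYC (-0.75, adjusted p = 6.48e-05) were lower. EGR1, which often moves with FOS after a growth signal, had 3.08 and 3.05 FPKM against 2.95 and 3.18 FPKM and was not called (adjusted p = 0.995). Of 10 tested clock genes, CLOCK (0.39, adjusted p = 0.0247) was called higher and 3 were lower, led by BHLHE40 (-0.98, adjusted p = 1.77e-05) and NR1D2 (-0.58, adjusted p = 0.00423), beside 18.5% and 23.8% over all genes, with a median of -0.12. The call of CLOCK was lost without either sh-NC library or sh-CEBPG#3 replicate 1. Of 7 further bZIP genes, 3 were tested and NFE2L3 (0.49, adjusted p = 0.00215) and CREBRF (0.43, adjusted p = 0.0241) were called higher, of which 1 call was left without sh-NC replicate 2 or sh-CEBPG#3 replicate 1.

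The lists were chosen with earlier results of these libraries known, and some of their genes, EIF4EBP1 among them, were picked by the study itself from these libraries, so these counts are no independent evidence of a direction.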

How the data were processed

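Total RNA of MV4-11 cells was made into libraries with the Illumina TruSeq RNA kit and sequenced. According to the study's methods and the submitters' processing notes, raw reads were filtered and mapped to hg38 with HISAT2 2.0.5. The authors deposited FPKM values per library for the RefSeq transcripts they listed, which are not all RefSeq transcripts. The program behind the FPKM values, the annotation version, and whether counting used strand are not given in the sources used here. The authors found their own differential genes with DESeq2, which was not used here, since it takes counts and FPKM values are not counts. The table listed 28780 rows, of which 199 had no value and 166 no symbol. Depth is unknown: among 1027 rows under 0.06 FPKM in both sh-NC libraries, at most 0.974% shared a ratio, so no steps of whole reads were seen.

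The FPKM of all rows with the same symbol were summed per library. Those averaging 0.5 FPKM or more in the 4 libraries entered the test on log2(FPKM + 1), a pseudocount of 1, with limma 3.58.1 in R 4.3.3 (lmFit, eBayes with a trend), with no block, and the Benjamini-Hochberg adjustment ran over all 12142 genes. The smallest p that an exact two-sided permutation test can reach with 2 against 2 libraries is 0.333, so the p-values rest on limma's model of the spread across genes. The fit was tested on simulated data.

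Groups and replicate numbers came from the sample titles. The bZIP genes, the lists of controlled genes and the cell markers were chosen with earlier results of these data known. Full values are given for the CEBP family, the ATF4 group and called genes with an absolute log2 change of at least 0.5, and for each list of controlled genes the 2 largest called changes in each direction. Further bZIP genes, and EGR1, ASNS, SLC7A5 and genes not tested, were named after their values were seen. Rows are shown where the highest row differs between the groups or rows went opposite ways by at least 1 on the log2 scale, and the ATF4 rows were chosen after their values were seen. As alternatives, the pseudocount was set to 0.1 or 0.01, the filter was dropped or raised to 1 FPKM, libraries were scaled by quantiles or to equal totals, the replicate number was used as a block, each library was left out, and each RefSeq row was tested by itself. The counts for the lists of controlled genes under these alternatives were added after seeing the data. Gene positions and antisense overlaps come from GENCODE 44 (GRCh38), and promoters from RefSeq (GRCh38.p14), read with Python 3.11.15. The overlaps cover the exons of all GENCODE transcripts of a gene, which can differ from its RefSeq rows. Genes with an overlap not given above include CEBPB (12.6%), JUNB (14.2%), MAFK (18.1%), ATF5 (19.5%) and ATF7 (28.3%).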

Additional observations from a re-analysis of the deposited data

How the results depend on the processing

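Over the alternative settings, the values of 26 bZIP genes kept direction and side of the threshold in 265 cases, lost the threshold in 41 and turned direction in 5. The 5 that turned were all small or tied to the row split: tested per RefSeq row, CEBPA gave 0.40 and ATF4 0.034, and with each library left out in turn ATF4 ran from -0.047 to 0.028 and DDIT3 from -0.075 to 0.023. CEBPB, CEBPD, CEBPG, JUN, JUNB and NFE2L2 kept their calls in all 12 settings. BATF2 kept its call in the 11 in which it was tested, but its sh-NC values lay near 0. It passed the main filter only through its sh-CEBPG#3 values, so it had to differ, and this is no sign of a stable result. The 13 genes called higher became 8 to 14 with each library left out in turn, with the lowest count without sh-CEBPG#3 replicate 1, and 7 per RefSeq row, where the 9 genes called lower became 1. In that setting 1534 of 18624 rows were called in all. The 2 genes past a log2 change of 1 became 4 with a pseudocount of 0.1 and 4 with 0.01, and 1 with a mean of at least 1 FPKM, which removes BATF2. The causes of the other changes were not tested.

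The replicate numbers come from titles only, and the deviations of same-numbered libraries correlated at 0.06, so the numbers were not taken to pair the libraries. With the replicate block, which leaves 1 residual degree of freedom, 13 genes were called higher, 9 lower and 2 past a log2 change of 1, and CREBZF was not called (adjusted p = 0.0882). The median change of all genes, -0.04, was -0.02 with quantile normalization and -0.06 with equal totals. With a library left out, the lone library of its group is assumed to vary like the other group.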
